A study of Mus musculus with 9 samples.

Results

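Plek and 6 further genes, Gpr141b, Lrrk2, Rab7b, Dapk1, Pdk4 and Lrrn1, were the subject of this description: 7 of the 19752 genes named on the array. They were chosen because their probe sets read highest in the GFP- innate lymphoid cells (ILCs) of mice with intact Rag1, so their height in that group is a property of the choice and is given as a description, with no test. They were read by 8 probe sets, and 7 of these, 1 per gene, passed the filter on dim probe sets. Lrrk2 alone had a second probe set, which was too dim to be tested.

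The series measured sorted skin cells on 9 one-colour Affymetrix arrays, 1 array per sample. All cells came from female B6 mice with EGFP in place of 1 Ccr10 allele, so that the controls too carried only 1 intact copy of this chemokine receptor gene, and green fluorescence stood for CCR10 expression. From CCR10+/EGFP mice with intact Rag1 (Rag1-sufficient) there were 2 samples of each fraction, GFP+ and GFP-. Rag1-/-CCR10+/EGFP mice, which cannot rearrange antigen receptor genes and so lack mature T and B cells, gave 2 GFP+ and 3 GFP- samples. The sort kept CD45.2+ cells that lacked CD3 and the other lineage markers: CD5, B220 and CD11b, the Gr-1 and 7-4 epitopes of myeloid cells, and an erythroid Ter epitope. This panel names no mast cell marker. The labels give no age and do not say whether replicates were separate or pooled animals, so the p-values rest on sample-to-sample spread alone, and that spread may be technical. In bulk samples such as these, fewer cells of a type and less RNA per cell cannot be told apart.

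The 7 genes do not belong to 1 pathway. Plek encodes pleckstrin, a major substrate of protein kinase C in platelets and leukocytes, which binds membrane phosphoinositides. Gpr141b encodes an orphan G protein-coupled receptor. Lrrk2 is a large kinase with a GTPase domain that phosphorylates Rab GTPases on vesicles and lysosomes, and Rab7b is a small GTPase of transport between late endosomes and the Golgi. Dapk1 is a calmodulin-regulated kinase of cell death and autophagy. Pdk4 phosphorylates and restrains the pyruvate dehydrogenase complex, which favours fatty acid oxidation over glucose. Lrrn1 encodes a leucine-rich repeat membrane protein known mainly from neurons.

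The values were intensities on a linear scale, already brought to a common level (array medians 74.1 to 77.6) and without detection calls. Id2, a regulator of ILC development, read 6727 to 7905 and Il7r, a cytokine receptor chain of ILCs, 2566 to 3806 on all arrays. Adgre1, which encodes the macrophage antigen F4/80 (15.7 to 19.3), the neutrophil gene S100a8 (19.1 to 30.7) and the platelet gene Pf4 (18.7 to 26.7) stayed below the filter limit of 41.6 on all arrays. Over the whole lists, 4 of 15 macrophage and monocyte markers, 7 of 10 neutrophil markers and 3 of 9 platelet markers did so, and 9, 1 and 6 were bright enough to test. Rag1 itself read 28.4 to 31.4 on all arrays, below the same limit, and gave no check of the genotype. Ccr10, the gene behind the gate, read 163 and 130 in GFP+ against 129 and 126 in GFP- cells of Rag1-sufficient mice (0.19 ± 0.20 on the log2 scale, limma adjusted p = 0.801). In Rag1-/- mice it read 148 and 96.5 against 103, 125 and 109 (0.10 ± 0.18, limma adjusted p = 0.872), so the array did not separate the fractions by this transcript. Cpa3, a mast cell protease, read 4932 and 4965 in Rag1-sufficient GFP- cells and 20.3 and 21.5 in GFP+ cells, and between 2009 and 2686 in Rag1-/- GFP- cells. The 2 Rag1-/- GFP+ arrays stood apart from each other, with Cpa3 at 2085 in replicate 1 and 19.9 in replicate 2.

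Plek had the widest gap between the Rag1-sufficient GFP- arrays and all others, while Gpr141b had the larger folds over both Rag1-/- groups. It read 394 and 471 in Rag1-sufficient GFP- cells and 69.6 and 64.0 in Rag1-sufficient GFP+ cells. The Rag1-/- arrays lay between these, at 142 and 116 in GFP+ cells and at 170, 130 and 166 in GFP- cells. The group means were 433 ± 54.8 (SD, n = 2), 66.8 ± 3.98 (n = 2), 129 ± 19.0 (n = 2) and 155 ± 22.2 (n = 3) in that order, so the Rag1-sufficient GFP- mean was 6.47 times the GFP+ mean of the same genotype and 2.79 times that of Rag1-/- GFP- cells. In order of level, Rag1-sufficient GFP- stood first and Rag1-sufficient GFP+ last, and the ranges of the Rag1-/- groups between them overlapped. On the scale of all probe sets, Plek ran from the 44.2nd percentile on its dimmest array to the 89.8th on its brightest.

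Gpr141b showed a similar height with a wider replicate spread. It read 175 and 274 in Rag1-sufficient GFP- cells, and replicate 2 was 1.56 times replicate 1, the widest replicate gap of the 7 genes in this group. The GFP+ arrays read 49.9 and 33.3 in Rag1-sufficient and 40.3 and 37.6 in Rag1-/- mice, and the Rag1-/- GFP- arrays 90.8, 65.3 and 65.3. The means were 225 ± 69.7 (n = 2) in Rag1-sufficient GFP- cells, 73.8 ± 14.7 (n = 3) in Rag1-/- GFP- cells, 41.6 ± 11.7 (n = 2) in Rag1-sufficient GFP+ cells and 38.9 ± 1.90 (n = 2) in Rag1-/- GFP+ cells. Both GFP- groups thus read above both GFP+ groups without overlap, and the GFP+ groups overlapped each other close to or below the filter limit. The Rag1-sufficient GFP- mean was 3.04 times the Rag1-/- GFP- mean. Of the GFP+ arrays 1 of 2 in Rag1-sufficient and 2 of 2 in Rag1-/- mice lay under the filter limit. With such arrays raised to the limit, taken as a floor since there are no detection calls, it was at least 4.91-fold and at least 5.40-fold higher than in these GFP+ groups.

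The promoters of Plek, Gpr141b and Pdk4 are shown because Plek and Gpr141b had the largest differences and because Plek and Pdk4 were the members with a match to a searched motif. Each runs from 250 bases before to 50 bases after the start site in RefSeq on GRCm38.p6, on the strand of the gene, and capitals mark motif matches on either strand. The windows lie at chr11:17008669-17008968 (minus strand) for Plek, chr13:19732902-19733201 (minus strand) for Gpr141b and chr6:5496229-5496528 (minus strand) for Pdk4.
Plek: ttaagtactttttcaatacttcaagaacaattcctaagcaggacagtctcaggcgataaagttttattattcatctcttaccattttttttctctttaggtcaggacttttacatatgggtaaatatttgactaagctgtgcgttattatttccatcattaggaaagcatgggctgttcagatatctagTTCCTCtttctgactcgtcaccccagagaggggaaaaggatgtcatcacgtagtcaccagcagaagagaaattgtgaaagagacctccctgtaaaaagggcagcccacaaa
Gpr141b: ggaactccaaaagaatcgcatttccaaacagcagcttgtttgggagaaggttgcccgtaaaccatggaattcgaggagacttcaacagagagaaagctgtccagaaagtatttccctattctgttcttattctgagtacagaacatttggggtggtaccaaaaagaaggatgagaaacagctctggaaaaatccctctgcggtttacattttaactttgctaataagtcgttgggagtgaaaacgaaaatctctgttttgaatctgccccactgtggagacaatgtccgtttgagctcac
Pdk4: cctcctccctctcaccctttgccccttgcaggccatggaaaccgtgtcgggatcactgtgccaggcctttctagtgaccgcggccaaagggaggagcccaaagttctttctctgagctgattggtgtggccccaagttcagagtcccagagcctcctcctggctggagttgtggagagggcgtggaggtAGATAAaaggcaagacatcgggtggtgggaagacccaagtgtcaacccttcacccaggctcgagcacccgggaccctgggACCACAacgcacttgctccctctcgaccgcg
RefSeq windows were matched for 6 of the 7 genes (Plek, Gpr141b, Lrrk2, Dapk1, Pdk4 and Lrrn1). Both strands were searched for 7 motifs, and no matches overlapped. The PU.1 core, GAGGAA, was found once in the Plek window, on the strand opposite to the gene, and in 28.3% of all 32851 promoter windows of this length. The GATA motif, AGATAA, lay in the Pdk4 window and in 11.2% of all windows. Pdk4 also held, after its start site and on the opposite strand, the RUNX motif, TGTGGT, which 16.8% of all windows held. The AP-1 motif TGANTCA was in no member window and in 7.81% of all windows. The same held for the NF-kB motif GGGANTTCC (1.68% of all windows), for the E-box CACGTG (7.15%) and for the FOXO motif TGTTTAC (3.65%). The windows of Plek (39% G and C) and Gpr141b (42.7%) lay below the median of all windows (52.7%), and those of Pdk4 (60.7%), Lrrn1 (67.3%), Lrrk2 (68.7%) and Dapk1 (77.7%) above it. These matches are descriptions of letters in a window, not binding sites.

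Lrrk2 and Rab7b, the kinase and the GTPase of vesicle traffic, had smaller differences. The brighter Lrrk2 probe set read 108 and 103 in Rag1-sufficient GFP- cells. It read 57.1 on both Rag1-sufficient GFP+ arrays and on Rag1-/- GFP- replicate 3, exactly the same deposited value on all 3, so the SD of 0 in the GFP+ group understates the error. The other arrays read 51.3 and 51.1 (Rag1-/- GFP+) and 46.1 and 50.5 (Rag1-/- GFP-). The mean of 105 ± 3.93 (n = 2) in Rag1-sufficient GFP- cells was 1.85 times the GFP+ mean and 2.06 times the mean of each Rag1-/- fraction. The second Lrrk2 probe set read 22.7 and 21.0 in Rag1-sufficient GFP- cells and 20.7 to 26.9 elsewhere, all below the filter limit, so the values of Lrrk2 rest on 1 probe set.

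Rab7b read 77.4 and 96.2 in Rag1-sufficient GFP- cells and 50.1 and 50.1 in GFP+ cells. In Rag1-/- mice it read 42.9 and 45.4 in GFP+ and 45.5, 48.7 and 50.8 in GFP- cells. Its Rag1-sufficient GFP- mean of 86.8 ± 13.4 (n = 2) was 1.73 times the GFP+ mean and 1.80 times the Rag1-/- GFP- mean. Below that group the levels lay close together, and Rag1-sufficient GFP+ (50.1 ± 0.0131, n = 2) and Rag1-/- GFP- cells (48.3 ± 2.69, n = 3) overlapped.

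Dapk1 had the 3 lower groups closest to each other. It read 116 and 123 in Rag1-sufficient GFP- cells, a mean of 119 ± 5.13 (n = 2). The other arrays read 66.5 and 75.8 in Rag1-sufficient GFP+, 71.8 and 67.4 in Rag1-/- GFP+ and 71.4, 72.1 and 61.4 in Rag1-/- GFP- cells. Their means were 71.1 ± 6.55 (n = 2) in Rag1-sufficient GFP+, 69.6 ± 3.11 (n = 2) in Rag1-/- GFP+ and 68.3 ± 6.0 (n = 3) in Rag1-/- GFP- cells, with overlapping ranges. The Rag1-sufficient GFP- mean was 1.68, 1.72 and 1.75 times these means.

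Pdk4 and Lrrn1, like Dapk1, had their lowest mean in Rag1-/- GFP- cells. For Dapk1 and Lrrn1 the range of that group overlapped that of Rag1-/- GFP+ cells. Pdk4 read 82.2 and 107 in Rag1-sufficient GFP- cells and 44.9 and 54.6 in GFP+ cells. Its Rag1-/- arrays read 47.2 and 47.9 in GFP+ and 34.3, 44.8 and 39.9 in GFP- cells, so that here the Rag1-/- GFP- group was the lowest of all, at 39.7 ± 5.25 (n = 3). The Rag1-sufficient GFP- mean of 94.5 ± 17.4 (n = 2) was 1.90 times the GFP+ mean. It was at least 2.22-fold higher than in Rag1-/- GFP- cells, where 2 of 3 arrays lay under the filter limit and were raised to it.

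Lrrn1 read 90.6 and 84.7 in Rag1-sufficient GFP- cells and 52.1 and 56.5 in GFP+ cells. In Rag1-/- mice it read 40.3 and 39.9 in GFP+ and 45.1, 33.6 and 30.2 in GFP- cells. Lrrn1 was thus the member in which both Rag1-sufficient groups stood above both Rag1-/- groups without overlap. The mean in Rag1-sufficient GFP- cells (87.6 ± 4.18, n = 2) was 1.61 times that in Rag1-sufficient GFP+ cells (54.3 ± 3.13, n = 2). Against Rag1-/- GFP- cells (36.3 ± 7.83, n = 3), with the 2 of 3 arrays under the filter limit raised to it, it was at least 2.05-fold higher.

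**Figure D1:**
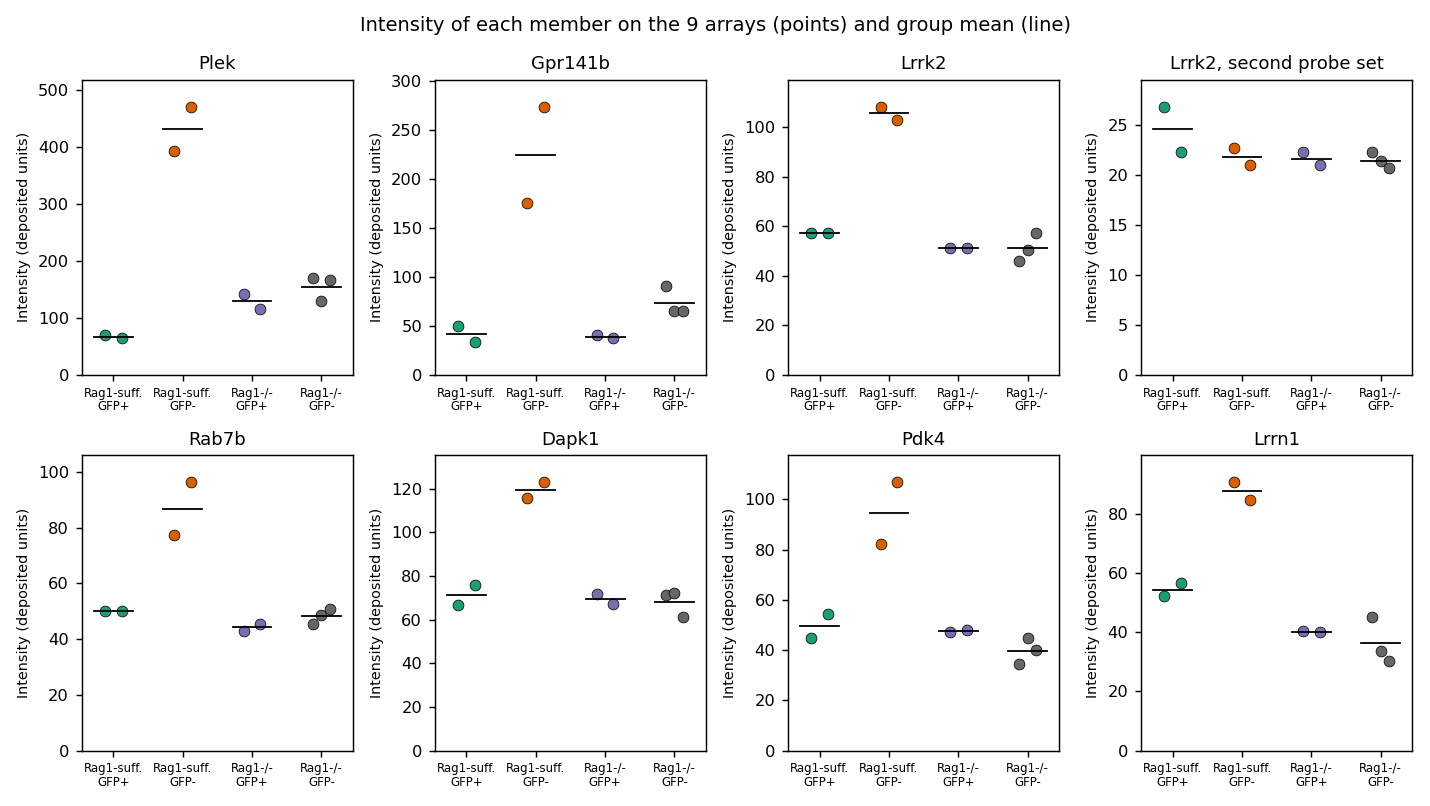
Deposited intensity (linear axis from 0) of the 8 probe sets of the 7 genes in the 4 groups, with 1 point per array and a line at the group mean. The 2 Rag1-sufficient GFP- arrays are the highest points in every panel except that of the second Lrrk2 probe set, where all arrays lie between 20.7 and 26.9.

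Among the 17445 probe sets tested, the members stood near the top by how far the Rag1-sufficient GFP- arrays exceeded the rest, which is the property they were chosen for. The gap between the lower of these 2 arrays and the highest of the other 7 was 1.21 on the log2 scale for Plek, which ranked 5, and 0.94 for Gpr141b (rank 15). It was 0.84 for Lrrk2 (rank 21), 0.60 for Dapk1 (rank 31), 0.60 for Rab7b (rank 33), 0.58 for Pdk4 (rank 39) and 0.58 for Lrrn1 (rank 40). Over all probe sets tested, 1157 (6.63%) had both Rag1-sufficient GFP- arrays above the other 7, and 1181 (6.77%) had both below. The 40 highest gaps held the 7 members, 10 of the 14 measured mast cell markers (Mrgprb1, Mcpt4, Cma1, Cyp11a1, Hdc, Cpa3, Tpsb2, Ms4a2, Gata2 and Slc45a3) and the dendritic cell genes Clec10a and Xcr1. None of the 40 came from the lists of macrophage, neutrophil, platelet, basophil and eosinophil, B, T, NK, ILC, keratinocyte, fibroblast or endothelial markers. Only 1 neutrophil marker and 1 basophil and eosinophil marker were bright enough to be ranked. The rest of the 40 were in none of the lists, among them the 2 highest gaps, Il1b (1.98) and Scd1 (1.59).

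**Figure D2:**
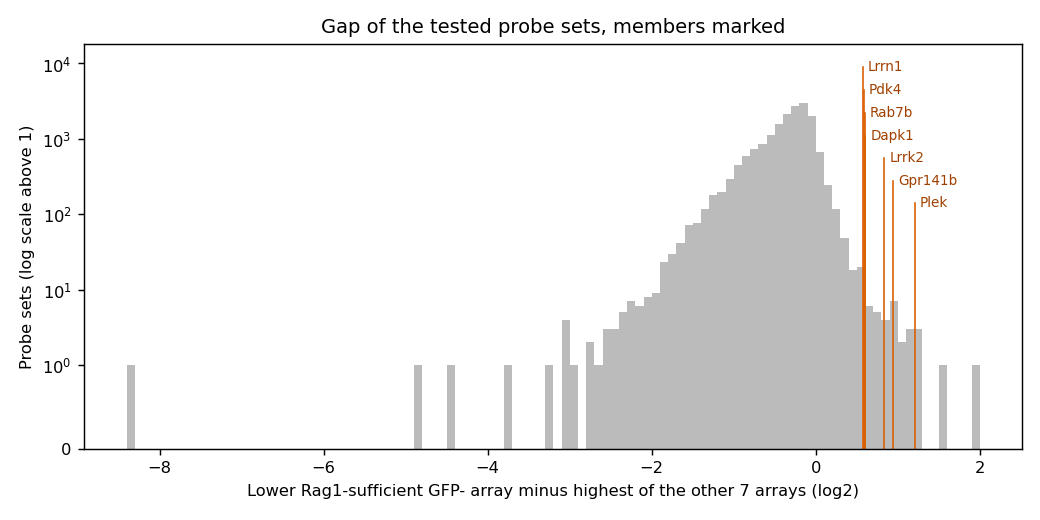
Histogram of the gap for the 17445 tested probe sets: the lower Rag1-sufficient GFP- array minus the highest of the other 7 arrays, on the log2 scale (x), against the number of probe sets per bin (y, log scale above 1). Vertical lines mark the 7 members, which run from 0.58 (Lrrn1) to 1.21 (Plek) in the right tail that the choice of members drew on, and the height of a line only spaces the labels.

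Differences between the groups other than Rag1-sufficient GFP- were not used by the choice, and the members could be tested there. In the main fit the Rag1-sufficient GFP- arrays still entered the filter and the shared estimate of spread behind the SE and p-values. For GFP+ against GFP- cells within Rag1-/- mice, 0 of the 7 members passed, as did 0 of all 17445 probe sets (0% called); at an unadjusted p under 0.05 it was 1 member, Gpr141b, and 6.29% of all. The groups did not overlap for 3 of the 7 members, against 15.4% of all probe sets (5.27% higher and 10.1% lower in GFP+ cells). Gpr141b was lower in both GFP+ arrays than in all 3 GFP- arrays, by -0.89 ± 0.23 (SE) on the log2 scale (limma adjusted p = 0.688, unadjusted p = 0.00467; adjusted p between 0.199 and 0.998 over the alternatives). Rab7b differed in the same direction by -0.13 ± 0.10 (limma adjusted p = 0.724), and its closest arrays read 45.4 and 45.5. Pdk4 was higher in both GFP+ arrays, by 0.26 ± 0.15 (limma adjusted p = 0.688). For Plek, whose groups overlapped, the difference was -0.26 ± 0.16 (limma adjusted p = 0.689). Lrrn1 (0.16 ± 0.15), Dapk1 (0.03 ± 0.10) and Lrrk2 (0.0044 ± 0.095) had overlapping groups, and the last 2 changed sign under quantile normalization.

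For Rag1-/- against Rag1-sufficient mice within GFP+ cells, again 0 of the 7 members passed, while 43 probe sets (0.246%) did. At an unadjusted p under 0.05 it was 2 members, Plek and Lrrn1, and 6.82% of all. Plek was higher in both Rag1-/- arrays (142 and 116) than in both Rag1-sufficient arrays (69.6 and 64.0), a difference of 0.93 ± 0.17 (limma adjusted p = 0.118, unadjusted p = 5.52e-04). The adjusted p for Plek lay between 0.0692 and 0.624 over the alternatives and passed in none, and the estimate lay between 0.78 and 1.08 when single arrays were left out. A fit with the Rag1-sufficient GFP- arrays kept out, also from the filter, was added after the data were seen. It gave Plek a limma adjusted p of 0.197. The estimate of 0.93 cannot change there, as those arrays lie in neither group compared. In that fit 2 probe sets passed in place of 43. Lrrn1 went the other way, at -0.43 ± 0.16 (limma adjusted p = 0.627), with both Rag1-/- arrays below both Rag1-sufficient ones. Rab7b (-0.18 ± 0.11) and Lrrk2 (-0.15 ± 0.10) were also lower without overlap, while Gpr141b (-0.06 ± 0.26), Pdk4 (-0.06 ± 0.16) and Dapk1 (-0.03 ± 0.11) overlapped. In all, 1 member was higher and 3 were lower without overlap, against 11% and 18.5% of all probe sets.

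**Figure D3:**
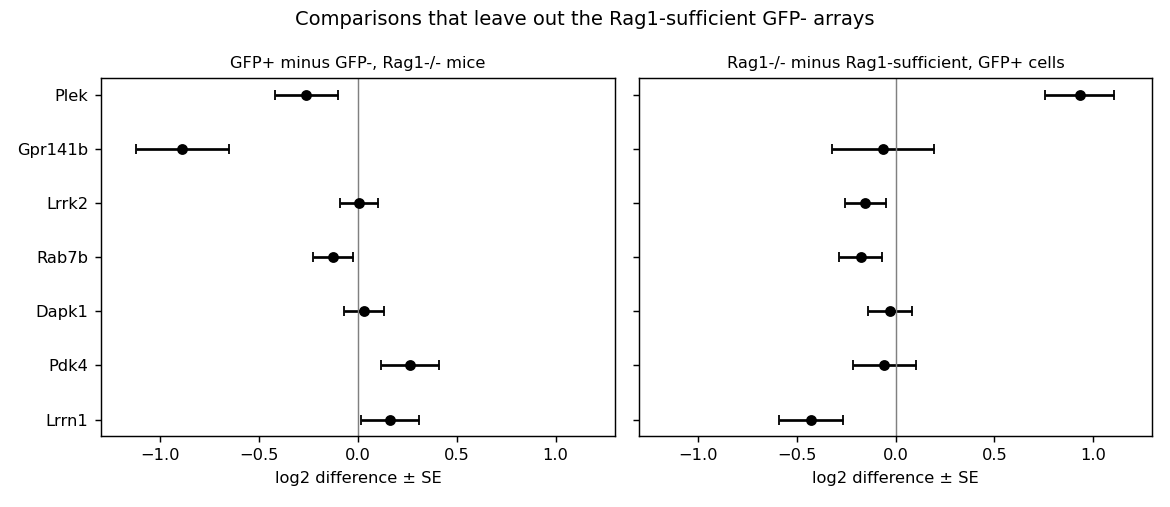
Differences on the log2 scale (points) with their SE (bars) for the 7 members in the 2 comparisons between groups other than Rag1-sufficient GFP-. The arrays of that group entered the shared spread behind the SE. Gpr141b at -0.89 (left) and Plek at 0.93 (right) lie farthest from 0, and no member passed the adjusted threshold of 0.05.

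Summed mast cell markers were highest on the 2 Rag1-sufficient GFP- arrays, where the members were highest by choice. Of the 11 tested markers of this cell type 9 were lower in GFP+ than in GFP- cells of Rag1-sufficient mice, where 140 probe sets (0.803%) passed and 82 (0.47%) were lower. Among the 4 with the smallest p were the tryptase Tpsb2 (-1.77 ± 0.16, limma adjusted p = 0.00843), the mast cell receptor Mrgprb1 (-3.46 ± 0.39, adjusted p = 0.0101), the steroid-synthesis enzyme Cyp11a1 (-2.30 ± 0.28, adjusted p = 0.0109) and the chymase Cma1 (-2.56 ± 0.31, adjusted p = 0.0112). The median of the tested markers was -2.05, beside 0.01 for all probe sets tested. None of the 11 passed without either replicate of Rag1-sufficient GFP+ or GFP- cells, 4 passed without Rag1-/- GFP- replicate 2, and 5 passed with the replicate number as a block. Cpa3 and Mcpt4 did not pass in the main fit, and none of the 11 passed in the other comparisons. These calls rest on the arrays by which the members were chosen, and the list was drawn up with earlier results of these data known. They are a description and not independent support, as are the calls below from comparisons with Rag1-sufficient GFP- cells. The summed intensity of the 14 measured markers was 10989 and 11186 in Rag1-sufficient GFP- cells, 1139 and 1245 in Rag1-sufficient GFP+ cells and 5081 to 6411 in Rag1-/- GFP- cells. Between the latter 2 groups, only Plek and Gpr141b had the higher mean in Rag1-/- GFP- cells. The means of Lrrk2, Rab7b, Dapk1, Pdk4 and Lrrn1 were lower there, with overlapping ranges for Lrrk2, Rab7b and Dapk1. In Rag1-/- GFP+ cells the summed intensity of the markers was 5160 in replicate 1 and 1570 in replicate 2.

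These last 2 arrays differed in the markers of several cell types. Cpa3 read 2085 in replicate 1 and 19.9 in replicate 2, Mcpt4, another mast cell protease, 878 and 14.1, and Mrgprb1 81.5 and 31.4, with each value of replicate 2 under the filter limit. All 11 tested mast cell markers were higher in replicate 1. The summed NK cell and ILC1 markers went the other way, at 2158 and 6045, as did the summed T cell markers, at 4434 and 7870. The 7 members had ratios between 0.944 (Rab7b) and 1.23 (Plek), with a median of 1.01, and Gpr141b and Lrrn1 were under the filter limit on both arrays. Replicate 1 also had a summed mast cell level within the range of the Rag1-/- GFP- arrays. At that level Gpr141b read 40.3, below the 65.3 to 90.8 of those arrays, and Plek read 142, within their 130 to 170. The part of mast cells in the height of the members in Rag1-sufficient GFP- cells, whose marker level no other array reached, was not tested.

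**Figure D4:**
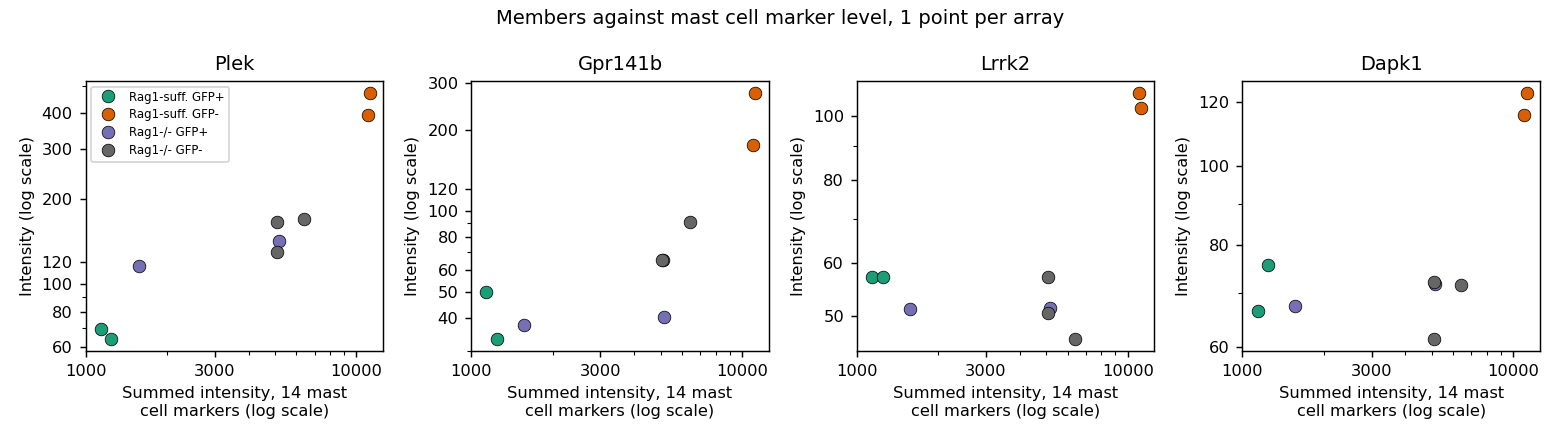
Intensity of Plek, Gpr141b, Lrrk2 and Dapk1 (y, log scale) against the summed intensity of 14 mast cell markers (x, log scale), with 1 point per array coloured by group. The 2 Rag1-sufficient GFP- arrays, at 10989 and 11186, stand highest in each panel, and the 2 Rag1-/- GFP+ arrays, at 5160 and 1570, read nearly the same Gpr141b, Lrrk2 and Dapk1.

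Of the other cell types, 2 of 10 tested dendritic and Langerhans cell markers passed in the same comparison: Xcr1, a chemokine receptor of cross-presenting dendritic cells (-0.78 ± 0.07, limma adjusted p = 0.00843), and the lectin Clec10a (-1.49 ± 0.15, adjusted p = 0.0101). They were also lower in Rag1-/- than in Rag1-sufficient GFP- cells, at -0.72 ± 0.07 (adjusted p = 0.0125) and -1.05 ± 0.14 (adjusted p = 0.0388), a comparison in which 25 probe sets (0.143%) passed, 0.0917% lower, and which shares the Rag1-sufficient GFP- arrays with the former. Neither passed in the first comparison without any single Rag1-sufficient array, which leaves 1 array in its group. In the second, neither passed without either Rag1-sufficient GFP- array, without Rag1-/- GFP- replicates 2 or 3, or with the replicate block. With a filter at 50% both were too dim to be tested in either comparison. The summed level of the 12 measured dendritic markers was 2065 and 2008 in Rag1-sufficient GFP- cells and 1728 to 2071 elsewhere. No marker passed in any of the 4 comparisons for macrophages and monocytes (9 tested; summed level of 15 markers 1162 and 1198 in Rag1-sufficient GFP- cells and 992 to 1156 elsewhere), platelets (6 tested; 1029 and 990.5, against 903 to 1302), neutrophils (1 tested), basophils and eosinophils (1), B and plasma cells (5), NK cells and ILC1 (5), ILCs and ILC2 (11), keratinocytes (11), fibroblasts (9) and endothelial cells (6). The 9 NK cell and ILC1 markers summed to 1762 and 1720 in Rag1-sufficient GFP- cells, the lowest of all arrays, against 4044 and 4272 in Rag1-sufficient GFP+ and 2158 to 6045 in Rag1-/- cells. The 12 T cell markers were also lowest there, at 3000 and 2937, against 3763 to 8200 elsewhere. Keratinocyte markers summed to 3318 and 5142 in the Rag1-sufficient GFP- replicates and to 2239 to 3363 elsewhere. Of these GFP- replicates, replicate 2 also read higher for Plek, Gpr141b, Rab7b, Dapk1 and Pdk4 and lower for Lrrk2 and Lrrn1. All 11 tested keratinocyte estimates were lower in GFP+ than in GFP- cells of Rag1-sufficient mice (median -0.37). So were 8 of 9 fibroblast (-0.14) and 6 of 6 endothelial estimates (-0.12), and 46.3% of all probe sets. In Rag1-/- against Rag1-sufficient GFP- cells, 9 of 11, 9 of 9 and 6 of 6 were lower (-0.85, -0.39 and -0.32), beside 49.9% of all. Of 11 tested T cell markers Cd3e, a chain of the T cell receptor complex, was higher in Rag1-/- GFP+ than in Rag1-sufficient GFP+ cells (2.68 ± 0.39, limma adjusted p = 0.0419, beside 0.0516% of all probe sets called higher), on the arrays where Plek also read higher. Its arrays read 763 and 1981 against 233 and 157, and of the 9 fits that left out 1 array it passed in only 2, those without either Rag1-/- GFP+ replicate. It also did not pass without a filter, without the intensity trend, with the replicate block or with only the groups compared. The part of these markers in the members' values was not tested.

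The pathways around the members showed few changes. Of 25 genes of protein kinase C and phosphoinositide signalling, 2 were lower in GFP+ than in GFP- cells of Rag1-sufficient mice and none was higher, with a median of -0.09 beside 0.01 for all probe sets. They were Prkcb, a protein kinase C isoform of leukocytes, and Marcks, a membrane-bound protein kinase C substrate. Prkcb read 169 and 173 in GFP- and 73.5 and 70.0 in GFP+ cells, a difference of -1.24 ± 0.12 (limma adjusted p = 0.00843), and 84.6 to 115 in Rag1-/- cells. Marcks read 71.8 and 86.0 against 43.2 and 47.9, a difference of -0.78 ± 0.13 (limma adjusted p = 0.0410), and 42.2 to 57.6 in Rag1-/- cells. Neither passed without any single Rag1-sufficient array, which leaves 1 array in its group. Of the 2 only Prkcb passed under quantile normalization, without a filter, without the intensity trend, with only the groups compared, with the replicate block, and without Rag1-/- GFP- replicates 2 or 3. Prkcb also passed with the 50% filter, under which Marcks was too dim to be tested.

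No gene of the other pathway lists passed in any of the 4 comparisons. These were LRRK2 and its Rab substrates (19 tested), late endosome and lysosome (24), death-associated kinases and autophagy (16), pyruvate dehydrogenase and fatty acid oxidation (26), orphan and lipid receptors of leukocytes (13) and leucine-rich repeat membrane proteins (15). Their medians for GFP+ against GFP- cells in Rag1-sufficient mice were 0.05, 0.06, -0.06, 0.03, 0.30 and 0.01 in that order. In Rag1-/- mice, estimates were lower in GFP+ cells for 20 of the 24 late endosome and lysosome genes (median -0.19), 19 of 25 of protein kinase C signalling (-0.14), 13 of 16 of autophagy (-0.11), 18 of 26 of pyruvate dehydrogenase and fatty acid oxidation (-0.13) and 12 of 19 of LRRK2 and Rab (-0.08), and for 52% of all probe sets (median -0.01). By summed level, only GFP+ replicate 1 lay below the range of the GFP- arrays in these lists. For late endosome and lysosome genes it read 7869, against 10315 in replicate 2 and 10064 to 11819 in GFP- cells. For protein kinase C signalling it read 10701, against 12966 in replicate 2 and 12335 to 13026 in GFP- cells. For orphan and lipid receptors 6 of 13 estimates were lower in GFP+ cells, and for leucine-rich repeat proteins 7 of 15.

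Of the closest relatives of the members, Lrrk1 also read highest on both Rag1-sufficient GFP- arrays, with a smaller difference that did not pass the test. Of 12 paralogs 9 were bright enough to test and none passed in any comparison, while Plek2 (29.9 to 49.1), Gpr141 (19.4 to 43.1) and Dapk2 (32.3 to 42.9) were not tested. Lrrk1 read 116 and 107 in Rag1-sufficient GFP- cells against 87.0 and 93.4 in GFP+ cells (-0.31 ± 0.09, limma adjusted p = 0.209), and 87.4 to 96.2 in Rag1-/- cells. Both Rag1-sufficient GFP- arrays of Lrrk1 thus stood above the other 7, as for 6.63% of all probe sets. Rab7, the general late endosomal GTPase, read 777 and 806 against 754 and 806 (-0.02 ± 0.17). Pdk3 had the opposite order to Pdk4, at 237 and 236 in Rag1-sufficient GFP- and 348 and 408 in GFP+ cells (0.67 ± 0.20, limma adjusted p = 0.210). Lrrn3 likewise read 65.9 and 73.1 in GFP- against 94.7 and 132 in GFP+ cells (0.68 ± 0.20, limma adjusted p = 0.189). Dapk3, Pdk1, Pdk2, Lrrn2 and Lrrn4 differed by -0.07, 0.04, -0.06, -0.04 and 0.11.

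The genes whose values over the 9 arrays followed Plek most closely were, with Pearson's r on the log2 scale as the measure and as a description only, Mrgprb1 (0.97), Jun (0.96), Prkcb (0.95), Pilrb2 (0.95), Fos (0.95), Cyp11a1 (0.95), Cma1 (0.95), Clec10a (0.94), Itga4 (0.94) and Pilrb1 (0.94). Their r includes the 2 Rag1-sufficient GFP- arrays by which Plek was chosen, so genes high on those arrays rank near the top. Of these 10 genes 3 were mast cell markers, and Jun and Fos encode subunits of the AP-1 transcription factor. Jun read 1079 and 1205 in Rag1-sufficient GFP- cells, 458 and 494 in GFP+ cells and 572 to 848 in Rag1-/- cells, the same order of group means as Plek. Among the members, Gpr141b was closest to Plek (r = 0.92, rank 29 of 14408 named probe sets), followed by Dapk1 (0.80, rank 178), Rab7b (0.79), Lrrk2 (0.76), Pdk4 (0.67) and Lrrn1 (0.54, rank 1211). Over the 21 pairs of members r lay between 0.54 and 0.96, and every pair shares the 2 arrays on which the members were chosen. Without those 2 arrays the 21 values lay between -0.93 and 0.72, with a median of -0.26 and 11 below 0. On these 7 arrays Gpr141b had an r of 0.65 with Plek, and the other 5 members had negative values between -0.77 (Lrrn1) and -0.32 (Dapk1).

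**Figure D5:**
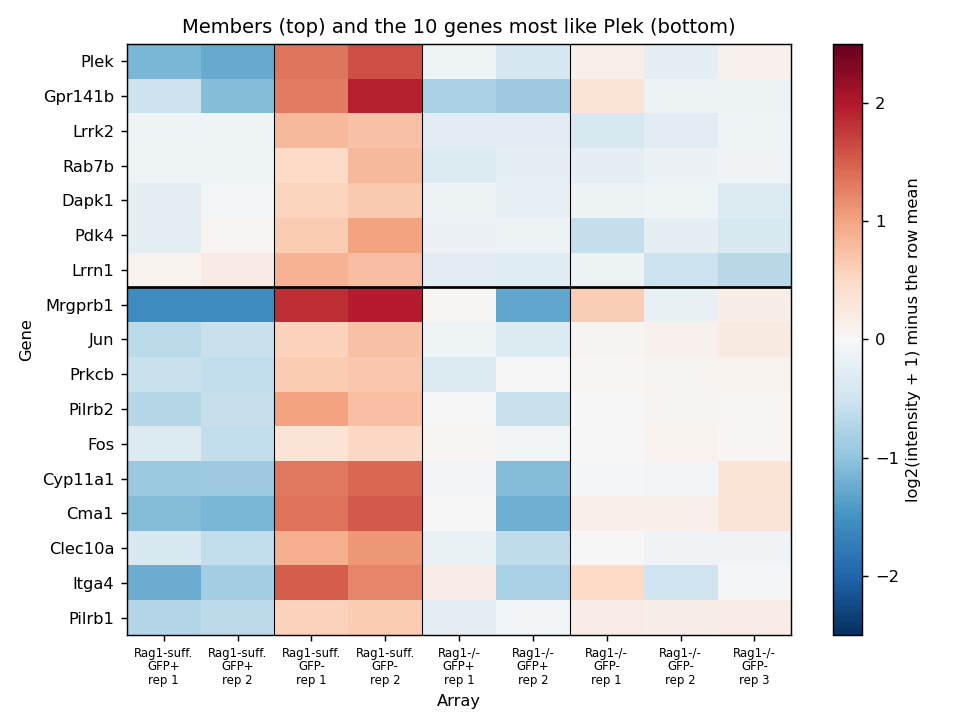
log2(intensity + 1) minus the row mean on each of the 9 arrays (columns, grouped by genotype and fraction) for the 7 members (above the line) and the 10 genes most like Plek (below it), with red above and blue below the row mean. The 2 Rag1-sufficient GFP- columns are red in every row and hold the highest values of each.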

How the data were processed

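RNA of sorted skin ILCs was measured on 9 one-colour Affymetrix arrays. The deposited values are intensities on a linear scale, 1 per probe set, for which the submitters' processing notes name MAS5; the version and any scaling between arrays are not given in the sources used here, and no detection calls were used. Of 24922 probe sets, 21425 had 1 gene symbol in the platform annotation, 1399 several and 2098 none. Values were taken as log2(intensity + 1). A filter dropped the dimmest 30% by mean log2 value (a limit of 41.6 in intensity) and left 17445. Group means were fitted with limma 3.58.1 in R 4.3.3 (lmFit, eBayes with an intensity trend), with Benjamini-Hochberg adjustment over all probe sets tested and a threshold of 0.05, after a check on simulated data. Differences and their SE are on this log2 scale, which understates changes of dim probe sets, and folds of members are ratios of mean intensities. The number of arrays limits the precision. Exactly equal values on at least 2 arrays occurred in 12464 probe sets (50.0%).

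The members and lists were chosen with earlier results of these data known. Every member is named, with the list genes past the threshold (for mast cell markers the 4 with the smallest p), all paralogs and the 10 genes most correlated with Plek. Replicate numbers were not used to pair the samples in the main fit. Deviations of same-numbered arrays from their group means correlated at -0.507 to 0.237, above 0.1 in 2 of 12 pairs. In groups of 2 arrays the deviations of the replicates mirror each other, so these values are not independent and cannot exclude a pairing. Alternatives were quantile normalization, another pseudocount (16), no filter or a 50% filter, no trend, array weights, only the groups compared, a replicate block and leaving out each array. Added after seeing the data were a block with crossed numbers and a fit without the Rag1-sufficient GFP- arrays.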

Additional observations from a re-analysis of the deposited data

Results flagged for a closer look

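For 2 of the 7 members the direction of a difference was opposite in the 2 settings in which it could be measured, in every array. Plek was higher in Rag1-/- than in Rag1-sufficient mice in GFP+ cells (0.93 on the log2 scale) and lower in GFP- cells (-1.48). Pdk4 was higher in GFP+ than in GFP- cells in Rag1-/- mice (0.26) and lower in Rag1-sufficient mice (-0.91). The difference between the settings was not tested, and the second value of each gene comes from the arrays by which it was chosen. That choice set the second value of every member below 0. A flag thus needed only a first value above 0 without overlap. Of all probe sets, 11% had this for Rag1 loss in GFP+ cells and 5.27% for GFP+ against GFP- in Rag1-/- mice. For Pdk4, 2 of 3 Rag1-/- GFP- arrays lay under the filter limit. No group held enough arrays for a check of single outlying samples.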

How the results depend on the processing

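Of 249 values of the members under the alternatives in the tested comparisons, 237 kept their direction, 12 changed sign and none passed the threshold. In the comparisons that chose the members, 215 of 228 values moved by less than the replicate spread and 13 by more, with no change of sign. Many values in both counts could not move. The filter, the trend, a fit of only the groups compared and leaving out an array of another group do not alter an estimate. The counts therefore overstate how stable the estimates are. Sign changes occurred near 0. GFP+ minus GFP- in Rag1-/- mice was -0.036 for Lrrk2 and -5.56e-04 for Dapk1 under quantile normalization, and -0.0046 (array weights) and -0.045 (replicate block) for Dapk1. Leaving out single arrays gave -0.068 to 0.084 for Lrrk2 and -0.045 to 0.074 for Dapk1. For Rag1 loss in GFP+ cells it gave -0.35 to 0.22 for Gpr141b, -0.12 to 0.063 for Dapk1 and -0.20 to 0.081 for Pdk4.

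Counts of probe sets called depended strongly on single arrays. For GFP+ against GFP- in Rag1-/- mice the count of 0 became 0 to 7 (7 without GFP+ replicate 1). For Rag1 loss in GFP+ cells the count of 43 became 1 to 135 (135 without Rag1-/- GFP+ replicate 2), 17 under quantile normalization, 3 without the trend, 0 with only these groups, 2 with the replicate block, 2 with crossed numbers and 2 without the Rag1-sufficient GFP- arrays. With Rag1 intact, the 140 calls between the fractions became 3 to 335, 1290 with array weights (866 higher, 424 lower) and 73 with the replicate block. For Rag1 loss in GFP- cells 25 became 1 to 139 (139 without Rag1-/- GFP- replicate 1), 43 with the larger pseudocount, 9 with the 50% filter, 1168 with array weights (685 higher, 483 lower), 8 with only these groups and 6 with the replicate block. The cause was not tested. Without detection calls, members near the filter limit cannot be told from background.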
